A study of Homo sapiens with 4 samples.

Results

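H3K27ac HiChIP loops of human M14 melanoma cells were examined at promoter anchors whose partners recurred largely in the loop lists of WT and STAG2-KD cells. An anchor is a 5 kb window of the genome (hg19) at one end of a loop, and the window at the other end is its partner. The anchors were selected on the loops themselves: each held the start of a protein-coding transcript, had 3 or more loops in the WT list and 3 or more in the STAG2-KD list, and had partners present in both lists that made up 50% or more of all its partners in either list. Of 30601 anchors in the 2 lists, 4125 had 3 or more loops in each list, and 1665 of these held a protein-coding start. Of the 1665, 562 met the overlap threshold. They are called stable promoter anchors here, and they carried the starts of 671 genes. Any protein-coding transcript of a gene counted, so the start need not be the gene's main one. The share was 33.8% (95% binomial interval 31.5% to 36.1%) of the 1665 promoter anchors and 34.4% of the 1953 genes with a start at one of them. Among the 2460 anchors with as many loops but no protein-coding start, 787 (32%, 30.2% to 33.9%) met the same threshold.

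Cohesin is a ring-shaped complex that extrudes DNA into loops until it meets obstacles such as the bound protein CTCF, and STAG1 and STAG2 are its alternative accessory subunits. Loops of this kind, and contacts between stretches of active chromatin, bring promoters near enhancers and near other promoters. Acetylation of histone H3 at lysine 27 marks active promoters and enhancers, and HiChIP joins DNA ends that lie close together in the nucleus before an antibody enriches the joined pieces that carry the mark. A promoter anchor in such data is a window with a gene start at one end of a loop. Its partners are the windows it was joined to more often than the loop caller's background. The lists do not say which end of a loop carried the mark, and the anchors were not checked against peaks of it.

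The M14 line used here expressed a short hairpin RNA against STAG2 that doxycycline induces. WT cells were grown without doxycycline and STAG2-KD cells with doxycycline for 5 days, so both groups carried the hairpin, and doxycycline and the knockdown cannot be told apart. The labels listed 2 samples per group, and 1 loop list per group was analysed, with 27289 loops in WT and 25621 in STAG2-KD. The lists hold positions with no read counts, so the depth behind a loop was unknown, and no difference between the groups had a replicate check or a test. Intervals are exact binomial or order-statistic intervals at 95% and cover counting error only, and they treat pairs of anchor and partner as independent although pairs at 1 anchor share its window.

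Sequence at a few of these anchors is shown first. Exact matches to a strict core of the CTCF motif lay in 22 of the 562 stable promoter anchors (3.91%, 2.47% to 5.87%), in 50 of the 1103 promoter anchors below the threshold (4.53%, 3.38% to 5.93%), and in 49 of the 787 stable anchors without a start (6.23%, 4.64% to 8.15%). Of the 1972 shared loops that touched a stable promoter anchor, 3 had matches at both ends that pointed towards each other, the orientation known for cohesin loops held by CTCF. Their 6 sites are printed because they are the loops in which both ends could be tied to that orientation by sequence. Each line runs 5′ to 3′ on the strand of its motif, with the motif in capitals.
SLC2A3 end, chr12:8085920-8085956, plus strand: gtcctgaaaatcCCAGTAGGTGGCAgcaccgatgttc
SLC2A3 partner, chr12:8147984-8148020, minus strand: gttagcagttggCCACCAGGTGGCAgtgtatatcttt
C1QBP partner, chr17:5153016-5153052, plus strand: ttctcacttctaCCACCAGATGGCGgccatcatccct
C1QBP end, chr17:5342531-5342567, minus strand: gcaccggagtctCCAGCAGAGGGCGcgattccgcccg
TIMM44 end, chr19:8009245-8009281, plus strand: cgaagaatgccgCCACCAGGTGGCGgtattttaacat
TIMM44 partner, chr19:8318042-8318078, minus strand: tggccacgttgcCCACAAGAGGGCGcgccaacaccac

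The annotation put both SLC2A3 sites in introns of SLC2A3 isoforms, the C1QBP site in an intron of that gene, the last site in an intron of CERS4, and the remaining pair between protein-coding genes. The loop was 60 kb long at SLC2A3, a glucose transporter gene, 190 kb at C1QBP, which encodes a mitochondrial protein, and 310 kb at TIMM44, a subunit of the mitochondrial protein import motor. SLC2A3 had 6 loops in WT and 7 in STAG2-KD, and 5 partners were shared. C1QBP had 3 loops in each list, all shared. TIMM44 had 5 loops in each list, with 4 shared. These loops were picked from the shared ones, so their presence in both lists was set by the choice. No private loop of a stable promoter anchor had such a pair of matches. There were 722 private loops from the WT list and 706 from the STAG2-KD list, against 1972 shared loops. With 3 pairs among the shared loops, the counts were too small to tell shared from private loops. At the promoter anchors below the threshold, 7 shared loops (among 2589) had such a pair. So did 3 loops private to WT (among 3418) and 5 private to STAG2-KD (among 3343).

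Promoter sequence is shown for MT2A, one of the 10 anchors with most shared partners, and for the IFIT pair, whose stable anchors were joined to each other. MT2A encodes a metallothionein, a small protein that binds zinc and copper, and metallothionein promoters are known to respond to metals through short metal response elements. The 150 bases before its start at chr16:56642496, on the plus strand and between protein-coding genes, held 4 matches to the core TGCNCNC on either strand, which are in capitals.
MT2A, chr16:56642346-56642495: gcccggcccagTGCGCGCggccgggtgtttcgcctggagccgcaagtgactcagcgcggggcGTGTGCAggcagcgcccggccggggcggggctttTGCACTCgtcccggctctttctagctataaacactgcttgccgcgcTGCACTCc
Of 19553 protein-coding promoters searched over the same length, 39.5% held 1 or more such matches and 0.471% held 4 or more. IFIT1 and IFIT3 encode antiviral proteins induced by interferon through the interferon-stimulated response element, to which the complex of STAT and IRF9 proteins binds. The core GAAANNGAA, searched on both strands, lay in 3.30% of those promoters, and the 30 bases around its matches are printed with the matches in capitals.
IFIT1, chr10:91152261-91152290: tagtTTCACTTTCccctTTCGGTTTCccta
IFIT3, chr10:91087629-91087658: tagtTTCACTTTCcagtttcctcttccttc
The IFIT1 site lay 115 bases before the main start of that gene, inside its stable anchor and, by the annotation, in an intron of LIPA on the other strand. The IFIT3 site lay 121 bases before the main start, in the window chr10:91085001-91090000, which is next to the stable anchor. The stable IFIT3 anchor, chr10:91090001-91095000, held the start of another IFIT3 transcript.

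The overlap of partners spread over its whole range. The median overlap was 57.1% among the stable promoter anchors and 38.5% among all 1665. All partners were shared at 35 stable anchors, exactly 50% at 220, and a share between these at 307. The highest overlap below the threshold was 47.4%, and 53 promoter anchors had no shared partner. Many anchors thus sat on or near the limit, since an anchor with few loops can take only a few values of overlap. These values were used by the rule and are given as a description.

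**Figure D1:**
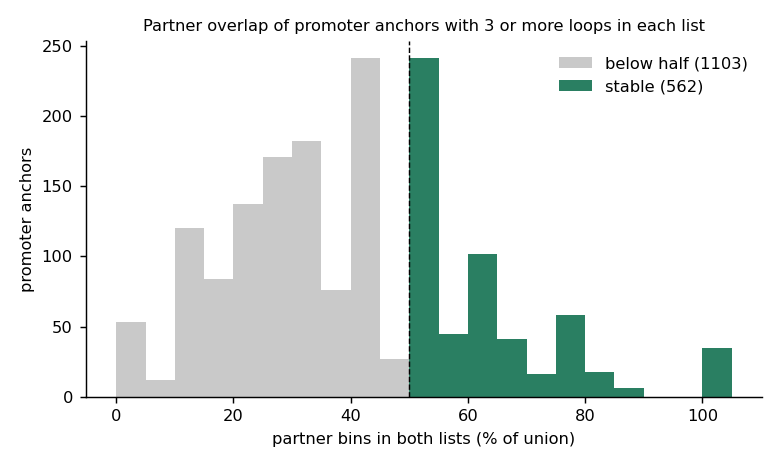
Number of promoter anchors (y axis) by the share of their partner windows found in both lists (x axis, % of all partners in either list, in steps of 5) for the 1665 promoter anchors with 3 or more loops in each list. The 562 stable anchors lie at or right of the dashed line at 50%, and 35 of them are at 100%.

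Just inside the threshold, at 50%, the 5 anchors with most partners were those of ZKSCAN1, GAPDH, HECTD3/UROD, IL16 and H2AC4/H3C2. ZKSCAN1 (chr7:99610001-99615000), a zinc finger gene, had 15 loops in WT and 12 in STAG2-KD, and 9 partners were shared. GAPDH (chr12:6640001-6645000), the glycolytic enzyme gene, had 12 in each list with 8 shared. Just outside were ANKRD28, BRD2/HLA-DMA, APIP/PDHX, ZNF785 and RPS27, at 46.2% to 47.4%. The window of BRD2, which encodes a reader of acetylated histones, had 13 loops in WT and 15 in STAG2-KD, and 9 partners were shared. Anchors on either side of the limit therefore differed by 1 or a few loops.

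The stable promoter anchors had nearly the same number of loops in both lists. They had 5.16 ± 2.33 loops in WT (SD over 562 anchors, median 5, range 3 to 16) and 5.14 ± 2.39 in STAG2-KD (median 5, range 3 to 17). The number was equal at 208 anchors, higher in WT at 181 and higher in STAG2-KD at 173. The 2 numbers were within 1 loop of each other at 68.9% of stable anchors (64.9% to 72.7%), against 53.5% (50.5% to 56.5%) of the 1103 promoter anchors below the threshold, where the mean was 5.82 in WT and 5.80 in STAG2-KD. A high overlap is itself easier to reach with similar numbers, so this difference was in part set by the rule. Summed over anchors, there were 2898 anchor-partner pairs in WT and 2887 in STAG2-KD. Shared pairs numbered 2168, WT-only pairs 730 and STAG2-KD-only pairs 719. At 142 stable anchors no STAG2-KD-only partner was present, and at 118 no WT partner was missing from STAG2-KD.

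**Figure D2:**
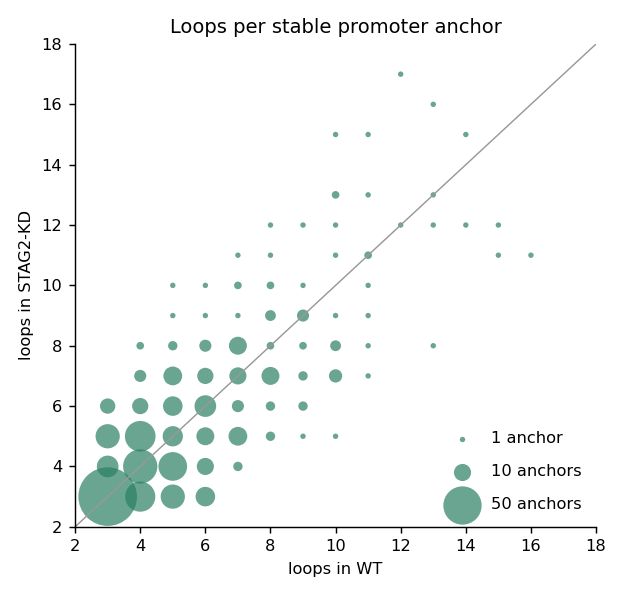
Loops in STAG2-KD (y axis) against loops in WT (x axis) for the 562 stable promoter anchors, with circle area proportional to the number of anchors and a line of equal numbers. The 208 anchors on the line, 181 below it and 173 above it show a nearly even split.

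Stability was less common at anchors with many loops. It was met by 161 of 392 promoter anchors with 3 loops in WT (41.1%, 36.2% to 46.1%), by 33 of 134 with 10 to 14 loops (24.6%, 17.6% to 32.8%), and by 3 of 24 with 15 or more (12.5%, 2.66% to 32.4%). By loops in STAG2-KD the shares were 42.5%, 22.4% and 17.9%. The rule used these loops, and the values of overlap an anchor can take depend on its number of loops. These shares were thus in part set by the rule and are a description.

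The 10 stable anchors with most shared partners are described next, and BAMBI led them. It encodes a decoy receptor that restrains TGF-beta signalling. Its anchor (chr10:28965001-28970000) had 11 loops in WT and 11 in STAG2-KD, and 10 partners were shared. All 10 shared partners lay on the same side, 215 kb to 665 kb away, and none held a protein-coding start. The single WT-only partner was at 160 kb and the single STAG2-KD-only partner at 315 kb, so the whole set pointed to the same stretch of chromosome. TNIK, a kinase of the Wnt pathway, likewise had partners without starts only, with 10 loops in WT, 12 in STAG2-KD and 9 shared at 40 kb to 345 kb (chr3:171175001-171180000).

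SREBF1, the transcription factor of lipid and sterol synthesis, had 13 loops in WT and 12 in STAG2-KD, 10 of them shared (chr17:17740001-17745000). One of its shared partners held a start, that of TOM1L2 at 35 kb, whose anchor was also stable. The starts of RAI1 and DRG2 were WT-only partners and that of PEMT, an enzyme of phosphatidylcholine synthesis, was STAG2-KD-only. DDX17, an RNA helicase gene, had 14 loops in WT and 15 in STAG2-KD. Of its 10 shared partners, 4 held starts: TMEM184B, KDELR3, CBY1/FAM227A and TOMM22. CSNK1E and DMC1 were WT-only and PICK1 was STAG2-KD-only, so each of these 2 anchors had 3 private partners with starts.

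MT2A (chr16:56640001-56645000) had 13 loops in WT and 16 in STAG2-KD, 10 of them shared. Its shared partners included the start of another metallothionein gene, MT1X, at 75 kb, that of NUDT21/OGFOD1 at 155 kb and that of NUP93 at 230 kb. HERPUD1 and NLRC5, a regulator of MHC class I genes, were STAG2-KD-only partners at 325 kb and 380 kb. TMBIM1, a gene of a transmembrane protein family that limits cell death, had 12 loops in WT and 17 in STAG2-KD, 10 of them shared. Its shared promoter partners were ARPC2, AAMP, SLC11A1, CTDSP1, CNOT9/USP37 and BCS1L/ZNF142. Of its 7 STAG2-KD-only partners, those from 295 kb to 460 kb lay on one side and included RNF25/STK36 and TTLL4.

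On chromosome 7, 3 of the 10 anchors belonged to a single neighbourhood. POP7, a subunit gene of the RNA-processing enzyme RNase P, had 15 loops in WT and 11 in STAG2-KD. UFSP1, of the UFM1 protein-modification pathway, had 16 in WT and 11 in STAG2-KD. GNB2, a G-protein subunit gene, had 10 in WT and 13 in STAG2-KD. The numbers of shared partners were 10, 10 and 9. GNB2 was joined to POP7 at 30 kb and to UFSP1 at 215 kb, and POP7 to UFSP1 at 185 kb, in both lists. All 3 were also joined in both lists to FBXO24/LRCH4. The last of the 10, EMP3/ODAD1, had 11 loops in WT and 13 in STAG2-KD, 9 of them shared, and its shared partners included CYTH2, RPL18/SPHK2 and DBP.

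**Figure D3:**
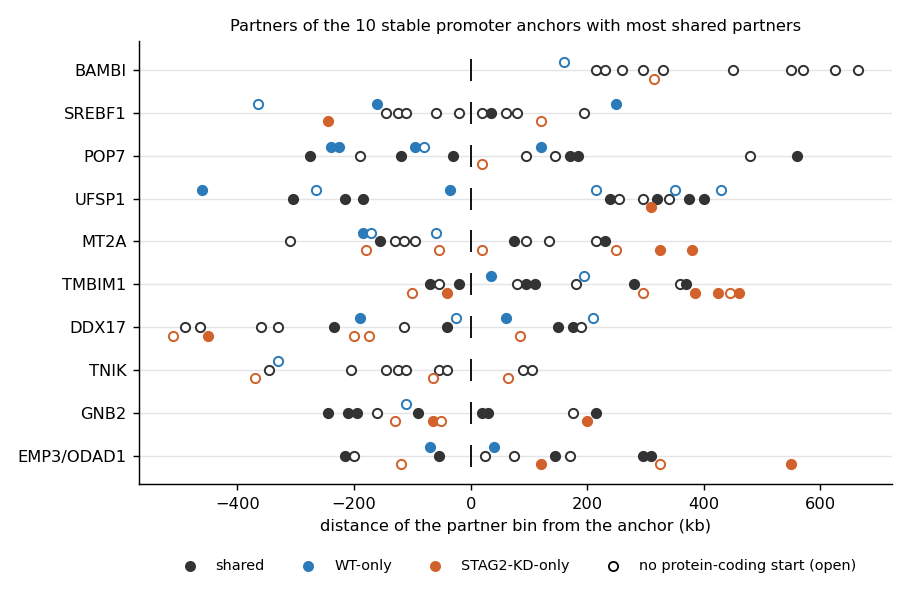
Partners of the 10 stable promoter anchors with most shared partners, placed by signed distance from the anchor in kb (x axis, higher coordinates to the right), one anchor per row. Dark circles are shared, blue circles WT-only and orange circles STAG2-KD-only partners, and filled circles hold a protein-coding start; all 10 shared partners of BAMBI are open and lie between 215 kb and 665 kb.

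All partners were the same in both lists at 35 anchors, none of which had more than 6 loops. LENG1 (chr19:54660001-54665000) had 6, and each of them held a start: NDUFA3/OSCAR, PRPF31/TFPT, CNOT3, MBOAT7/TSEN34, RPS9 and LENG8. NFATC2IP had 5, of which 4 were the stable anchors of ATXN2L, SH2B1/TUFM, SH2B1 and RABEP2. ELL, an elongation factor gene of RNA polymerase II, had 5 at 25 kb to 65 kb, among them KXD1. TNFRSF19 had 5 and FAM76A, ST6GALNAC3, SH2B1, FN1 and CLCN3 had 4 each. FN1, which encodes the matrix protein fibronectin, had no near partner among these (chr2:216300001-216305000). Its 4 partners, none with a start, were at 245 kb, 335 kb, 360 kb and 480 kb.

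Some stable anchors had different numbers of loops in the lists. The largest excess in STAG2-KD was 5 loops, at CTNNBIP1 (10 in WT, 15 in STAG2-KD), BCL10 (5 and 10) and TMBIM1, followed by 4 loops at ISCU/SART3 (4 and 8) and PRKAR1A (6 and 10). BCL10, a signalling adaptor gene of NF-kappaB, had all 5 WT partners in STAG2-KD and 5 more without a start, from 35 kb to 375 kb. PRKAR1A, a regulatory subunit gene of protein kinase A, had all 6 WT partners in STAG2-KD. The largest excess in WT was 5 loops, at IL16 (13 and 8), DBP (10 and 5) and UFSP1, followed by 4 loops at BEST1 (11 and 7) and SNRNP70 (9 and 5). The longest partners of IL16, a cytokine gene, at 540 kb and 770 kb, were WT-only, and its median distance was 140 kb for WT and 60 kb for STAG2-KD. SNRNP70, a subunit gene of the U1 spliceosomal particle, had the starts of PPP1R15A, BAX and one of its 2 partners at PPFIA3 in WT alone, and no STAG2-KD-only partner. The excess was of the same size in both directions, and these anchors were chosen for it.

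Shared partners lay nearer than private ones. At stable promoter anchors the median distance was 80 kb for shared pairs (75 to 85), 120 kb for WT-only pairs (115 to 130) and 120 kb for STAG2-KD-only pairs (110 to 125). Over all loops of each list the medians were 90 kb for WT (90 to 95) and 90 kb for STAG2-KD (85 to 95). Promoter anchors below the threshold had longer loops, with medians of 120 kb in both lists, and 100 kb for shared, 135 kb for WT-only and 135 kb for STAG2-KD-only pairs. Stable anchors without a start had medians near those of stable promoter anchors. These were 90 kb in both lists, and 80 kb for shared, 110 kb for WT-only and 115 kb for STAG2-KD-only pairs. The nearest partner was the same in both lists at 413 stable promoter anchors (73.5%) and the farthest at 280 (49.8%).

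**Figure D4:**
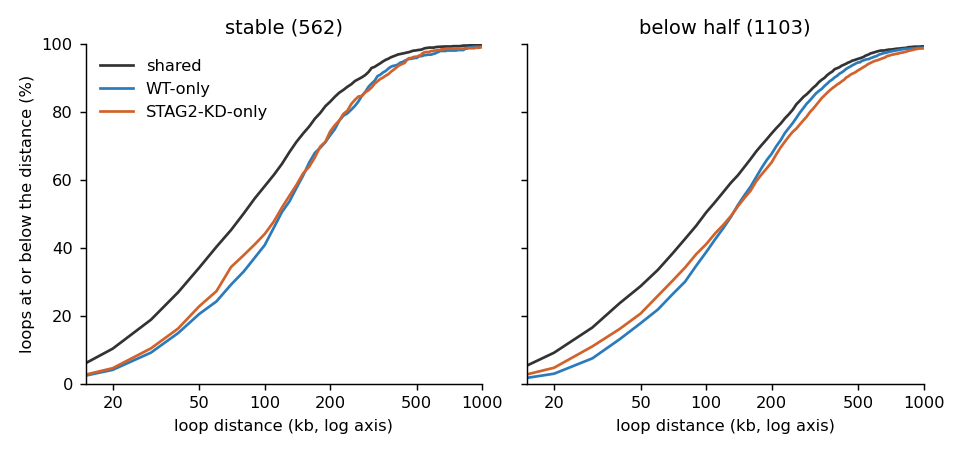
Cumulative share of loops (y axis, %) at or below a distance (x axis, kb, log axis) for shared, WT-only and STAG2-KD-only pairs at the 562 stable promoter anchors (left) and the 1103 below the threshold (right). In both panels the shared curve lies left of the private ones, with medians of 80 kb against 120 kb and of 100 kb against 135 kb.

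The share of WT pairs that were also in STAG2-KD was lower at longer distances inside the stable set. It was 83.3% (80.5% to 85.8%) of 796 pairs under 50 kb, 78.7% of 710 from 50 to 100 kb, 70.1% of 802 from 100 to 200 kb, 66.2% of 520 from 200 to 500 kb and 57.1% (44.7% to 68.9%) of 70 at 500 kb or more. Read from STAG2-KD, the first of these shares was 83.0% and the last 59.7%. At promoter anchors below the threshold the WT shares were 56.7%, 45.2%, 38.8%, 39.1% and 38.3% in the same order. Read from STAG2-KD, the shares there were 52.7%, 45.7%, 43.7%, 39.1% and 30.5%. They were thus nearly level from 100 kb when read from WT, but lower at longer distances when read from STAG2-KD. The rule used these shares, so they are a description. Loops of 500 kb or more were scarce at stable anchors, with 2.42% of pairs in WT (1.89% to 3.04%) and 2.32% in STAG2-KD (1.80% to 2.94%). Below the threshold they made up 5.07% (4.55% to 5.64%) in WT and 6.41% (5.82% to 7.04%) in STAG2-KD.

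The 5 longest shared loops that touched a stable promoter anchor were all on chromosome 6. The longest shared loop at a promoter anchor below the threshold was 1965 kb. The histone window H2AC4/H3C2 was joined to H1-5, a linker histone gene in the distal part of the large histone cluster, at 1805 kb, and H1-3 was joined to H1-5 at 1600 kb. H2AC4/H3C2 had 11 loops in WT and 10 in STAG2-KD, 7 of them shared, all 7 at histone genes, and H1-5 had 10 and 8 loops, 6 of them shared. Histone genes of this kind have many near-identical copies, and how reads that fit several copies were treated is not given in the sources used here. The next 3 loops belonged to TFAP2A, a transcription factor gene of the melanocyte lineage, with shared partners without starts at 1430 kb, 1325 kb and 1160 kb and a further one at 870 kb. TFAP2A had 8 loops in WT and 7 in STAG2-KD, with 3 WT-only and 2 STAG2-KD-only partners. Of these private partners, the ones at 910 kb (WT) and 930 kb (STAG2-KD) lay in the same region, and the others are not reported here.

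Promoters were common among the partners, and more so among shared ones. A protein-coding start lay in the partner of 48.9% of the WT pairs (47.1% to 50.7%) and 48.9% of the STAG2-KD pairs (47.0% to 50.7%) at stable promoter anchors. The share was 51.9% (49.8% to 54.0%) among shared, 40.0% (36.4% to 43.7%) among WT-only and 39.8% (36.2% to 43.5%) among STAG2-KD-only pairs. Promoter anchors below the threshold had lower shares, with 44.3% among shared, 35.3% among WT-only and 34.2% among STAG2-KD-only pairs. Stable anchors without a start had 25.5%, 21.2% and 18.6%. Put the other way, 79.4% (77.2% to 81.5%) of WT pairs with a start at the partner were in both lists, against 70.4% (68.0% to 72.7%) of those without one. Shared pairs were also shorter than private ones, as given above, and the part of distance in this was not tested. The rule used the sharing of partners, so the values split by sharing are a description.

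**Figure D5:**
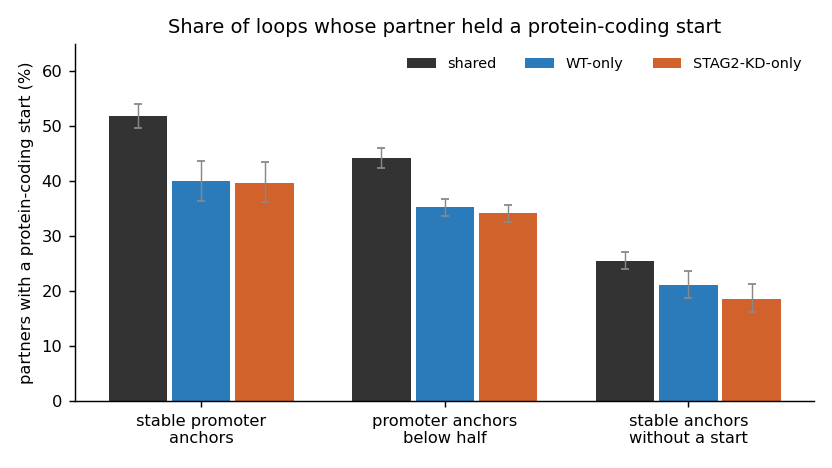
Share of pairs whose partner held a protein-coding start (y axis, %) for shared, WT-only and STAG2-KD-only pairs at 562 stable promoter anchors, 1103 promoter anchors below the threshold and 787 stable anchors without a start; error bars are exact 95% binomial intervals. The shared bar is the tallest in each set, at 51.9%, 44.3% and 25.5%.

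By position, 1072 of the 2168 shared pairs (49.4%) ended at the start of another gene and 53 (2.44%) at another start of the same gene, the latter at 52 anchors such as those of ITGB1 and RAB27A. A further 254 (11.7%) ended inside the anchor's own gene away from a start, 453 (20.9%) inside another gene and 336 (15.5%) between genes. WT-only and STAG2-KD-only pairs ended inside another gene more often, at 33.7% (30.3% to 37.3%) and 30.9% (27.5% to 34.4%). All shared partners held starts at 116 stable anchors (20.6%), and none did at 93 (16.5%). Of the 1050 promoter anchors below the threshold with any shared partner, all held starts at 271 (25.8%) and none did at 368 (35.0%). Those anchors had fewer shared partners each, 2819 pairs over 1103 anchors against 2168 over 562. Private pairs used windows that were in part anchors in the other list: 65.3% of the 730 WT-only partners were used by some loop in STAG2-KD, and 61.5% of the 719 STAG2-KD-only partners by some loop in WT. These shares were near those of all anchors, of which 62.8% in WT and 65.4% in STAG2-KD were anchors in the other list. Below the threshold they were 57.5% and 59.1%. Some private partners also lay close to a partner in the other list, within 2 windows at 15.3% and 18.4%, against 18.6% and 19.2% below the threshold.

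Some stable anchors were joined to each other. Of the 562, 261 (46.4%) had a shared loop to another stable promoter anchor, by 196 such loops, and no pair of them was adjacent. A stable promoter anchor was the partner in 18.1% of the shared pairs of stable anchors (392 of the 783 whose partner was any of the 1665) and in 13.9% of those below the threshold (391 of 851). They formed 104 groups, 70 of 2 anchors, 23 of 3 and 11 of 4 or more. The largest had 6 anchors each. On chromosome 1 (chr1:32670001-32820000, 10 shared loops) the group was DCDC2B/IQCC, EIF3I/TMEM234, FAM167B, HDAC1, MARCKSL1 and TSSK3. HDAC1, a histone deacetylase gene, had 6 loops in WT and 8 in STAG2-KD, all 6 of the former shared, and was joined to each of the other 5 anchors. On chromosome 12 (chr12:6640001-7080000, 7 shared loops) the group held GAPDH and TPI1, both genes of glycolysis, with ING4, COPS7A, MLF2 and PHB2. TPI1 had 6 loops in WT, all shared, and 7 in STAG2-KD. On chromosome 8 (chr8:144910001-145160000, 11 shared loops) it held PUF60, PLEC, GRINA/PARP10, PARP10/SPATC1, EXOSC4 and MAF1/SHARPIN. PLEC, which encodes the cytoskeletal linker plectin, had 4 loops in WT, all shared, and 7 in STAG2-KD. The groups were built from the shared loops that the rule counted, so their number is a description.

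The windows themselves were close to other promoter anchors in composition. Median GC content was 50.9% against 50.6% in promoter anchors below the threshold, and the median number of CpG sites was 161 in both. Starts of 2 or more genes lay in 18.9% of stable anchors (15.7% to 22.3%) and in 19.1% of the others. The median number of genes within 250 kb on each side was 11 (quartiles 6 and 18) against 9 (5 and 18). All loops ran to one side at 18.0% of stable anchors (14.9% to 21.4%) and at 11.0% (9.19% to 13.0%) of the others. Anchors with 3 loops were more common in the stable set, and their part in the last difference was not tested.

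Genes of fixed lists were read against the 34.4% of all 1953 genes that had a stable anchor. Each list was counted over its genes with a promoter anchor of 3 or more loops in each loop list. Its other genes could not be assessed. Some anchors named in this report held only the start of a shorter transcript. The windows of SOX10, HDAC5, CTNNBIP1, IL16 and IRF1, for example, did not reach the outermost annotated start of the gene. Of 10 melanocyte lineage genes with a promoter anchor of 3 or more loops in each list, 5 were stable (50.0%, 18.7% to 81.3%). They were SOX10, the lineage transcription factor with 4 loops in each list and 3 shared, TFAP2A, EDNRB, the endothelin receptor gene with 6 and 4 loops and 4 shared, LEF1, a Wnt transcription factor gene with 3 and 3 loops and 2 shared, and RAB27A, a gene of melanosome transport. RAB27A had 2 stable anchors, with 3 and 5 loops at the first and 4 and 5 at the second, 3 shared at each, and they were joined to each other at 20 kb. CAPN3, MC1R, MEF2C, PAX3 and ZEB2 were not stable, with overlaps of 8.33% to 36.4%.

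Of 33 interferon genes on the list, 8 had a promoter anchor of 3 or more loops in each loop list, and 5 of these 8 were stable (62.5%, 24.5% to 91.5%). IRF9, IRF7, ISG15 and USP18 were on the list but had no such anchor, so their stability could not be assessed. STAT2, a subunit of the interferon-activated transcription complex, had 7 loops in WT and 8 in STAG2-KD, 5 of them shared, all 5 at the starts of other genes, namely NABP2/RNF41, ANKRD52, PAN2, TIMELESS and SPRYD4. IFIT3 and IFIT1 had 4 loops in each list with 3 shared, and were joined to each other at 60 kb in both lists. The start of IFIT2 was a STAG2-KD-only partner of IFIT3, and that of IFIT5/LIPA a WT-only partner of IFIT1. MX1, an antiviral GTPase gene, had 3 loops in each list with 2 shared, and the start of MX2, its neighbour and paralogue, was a STAG2-KD-only partner at 50 kb. IRF2, a repressor of interferon genes, had one stable anchor (4 loops in each list, 3 shared) and one that was not (7 in WT, 3 in STAG2-KD). IFI6, IRF1 and OAS2 were not stable. IRF1, an activator of interferon genes, had 7 loops in WT and 12 in STAG2-KD, 4 of them shared, and IFI6 had 10 and 16 with 8 shared. OAS2 had 3 and 5 with 2 shared.

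Of 16 genes of cohesin and CTCF, 3 had a promoter anchor of 3 or more loops in each loop list. CDCA5, which encodes the cohesin protector sororin, was stable, in a window with ZFPL1 (4 loops in WT, 5 in STAG2-KD, 3 shared). CTCF (4 and 3 loops, 1 shared) and STAG1, the subunit alternative to STAG2 (12 and 13 loops, 5 shared), were not. No gene was stable among 10 immediate early and AP-1 genes (exact interval up to 30.8%), among 7 cell cycle genes (up to 41.0%), 5 ERK feedback genes, 5 BCL2 family genes and 2 YAP and TEAD genes. The immediate early genes were EGR1, EGR3, FOSL1, FOSL2, IER2, JUN, JUND, KLF6, MAFF and MYC, and their overlaps were 12.5% to 40.0%. The cell cycle genes included CCND1, CDC25B, CDK4, CDK6, CDKN1B and CDKN2A, and the overlaps of the 7 were 12.5% to 44.4%.

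Of 8 chromatin acetylation genes, 4 were stable (among them HDAC1, HDAC5 and KAT2B), as were 4 of 10 splicing factor genes (HNRNPL, HNRNPM, SF3A1 and SRSF9) and 2 of 7 matrix and integrin genes (FN1 and ITGB1). HNRNPL, which binds CA-rich RNA, had 5 loops in WT, all shared, and 9 in STAG2-KD. Of 18 ribosomal protein genes, 5 were stable (27.8%, 9.69% to 53.5%), and all 3 WT partners of RPL31 were also in STAG2-KD. Of 29 replication-dependent histone genes, 3 were stable (10.3%, 2.19% to 27.4%), and several of these genes shared windows and partners. Of 6 zinc finger genes on chromosome 19, 3 were stable, and ZNF460 (8 loops in WT, 7 in STAG2-KD) had 7 shared partners, all at the starts of other zinc finger genes: ZNF805, ZNF543, ZNF304, ZNF547, ZNF548, ZNF17 and ZNF749. Over the 14 lists compared, the share of stable genes ran from 0% to 62.5%. The intervals treat genes as independent, although H2AC4 and H3C2 share an anchor and CCND1 was on 2 lists. They were not adjusted for the number of lists. No list was tested or called above or below 34.4%.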

How the data were processed

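The labels name 4 HiChIP samples of M14 cells, 2 per group, which were grouped by title. The analysed lists, 1 per group, are filed under replicate 1. The authors, per the study's methods, aligned reads to hg19 (HiC-Pro), took H3K27ac peaks from the HiChIP reads and called loops with FitHiChIP. For their differential analysis they then removed self-ligated loops and those over a false discovery rate, and filtered by read support in each replicate. Whether these steps were applied to the analysed lists, the tool versions and whether replicates were pooled are not given in the sources used here. The deposited lists hold 3 columns of positions and no count or score, so a loop missing from one may be a contact just short of the caller's limit, which lowers the overlap of partners.

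Starts, counted from 0 in the lists, are printed counted from 1. GENCODE release 44 (GRCh37 lift) gave the starts of protein-coding transcripts, and GRCh37 the sequence. Partners were equal when their 5 kb windows were, and overlap was the number of partners in both lists divided by the number in either. Distances ran between window starts, and a loop between 2 anchors counted at each. Shares have exact Clopper-Pearson intervals and medians order-statistic intervals (95%). No test was run, with 1 list per group. The rule was tested on simulated lists. The named genes were the 10 anchors with most shared partners, up to 10 with all partners shared, 5 on each side of the threshold, the 5 with the largest excess of loops in each list, the 5 longest shared loops, the 3 largest groups, stable genes of the lists, and genes of the interferon and cohesin lists that were not stable. Some named genes are not reported here. The SLC2A3, C1QBP and TIMM44 sites, the IFIT and MT2A windows, the groups of 5, PLEC and TPI1 were chosen after their values were seen. The members and lists were chosen with earlier results of these data known. The alternatives tried are named with their effects in the closing section. Computation used Python 3.11.15, numpy 2.4.6, scipy 1.17.1, networkx 3.6.1, pysam 0.24.0 and matplotlib 3.10.9.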

Additional observations from a re-analysis of the deposited data

How the results depend on the processing

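The 9 values for the stable promoter anchors (their number, their share of the 1665, the share of WT and STAG2-KD pairs with a start at the partner, the median distance and loops in each list, and the share with a CTCF core match) were recomputed under 31 alternatives. Of 279 values, 250 fell within the 95% interval around the reported one (for the number of anchors, within 1.5 times it), and 29 did not. Of the 31 alternatives, 22 left out 1 chromosome each, which changes the set little, and gave 2 of the 29 values outside. All other values outside came from the remaining, fewer alternatives, so the total of 250 says little about changes of the rule. With 5 loops required in each list there were 208 stable anchors (31.0%), with median loops of 7 in both lists, median distances of 110 kb (WT) and 105 kb (STAG2-KD), and 46.9% of STAG2-KD pairs with a start at the partner. With 2 loops required there were 921, with medians of 3 loops in both lists and of 85 kb and 80 kb. With an overlap of 60% required there were 276 (16.6%), with median distances of 85 kb and 80 kb. With the earlier 50% of each chromosome's lines there were 232 (40.1%), and the shares of pairs with a start were 42.4% and 41.9%. When a partner within 1 window counted as the same, 39.6% of anchors were stable, with 46.5% and 46.2% of pairs with a start. Those shares were 53.6% and 53.4% with starts of any transcript of a protein-coding gene, and 46.8% and 46.4% with transcripts tagged basic alone. Without chromosome 19 they were 46.4% and 45.9%. Over the 22 chromosomes left out in turn, the number of anchors was 485 to 556, their share 33.0% to 34.6%, the WT share of pairs with a start 46.4% to 49.9% and the STAG2-KD share 45.9% to 50.3%. The causes were not tested beyond what each alternative changes by construction. No paired analysis was possible because a single list stood for each group and no test was run. Depth was unknown, so a private partner cannot be told from one just under the caller's limit.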

Other observations

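Stable promoter anchors were found on every autosome. Chromosome 1 held most, 77 of its 207 promoter anchors with 3 or more loops in each list (37.2%, 30.6% to 44.2%), and chromosome 19 held 62 of 151 (41.1%, 33.1% to 49.3%). The highest share was on chromosome 10, 14 of 30 (46.7%, 28.3% to 65.7%), and the lowest on chromosome 11, 29 of 125 (23.2%, 16.1% to 31.6%). Of the intervals of the other chromosomes, that of chromosome 19 was the one that did not overlap the interval of chromosome 11, which was picked as the lowest of 22.

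Further groups of joined stable anchors had 5 members. On chromosome 16 (chr16:28835001-28965000, 9 shared loops) ATXN2L, SH2B1/TUFM, SH2B1, RABEP2 and NFATC2IP lay within 130 kb, and ATXN2L had 5 loops in each list with 4 shared. On chromosome 7 (chr7:100180001-100890000, 7 shared loops) FBXO24/LRCH4, GNB2, POP7, UFSP1 and FIS1 spanned 710 kb, and FIS1, a gene of mitochondrial fission, had 9 loops in WT and 7 in STAG2-KD, 6 of them shared.

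Shared loops of stable anchors stood earlier in the lists than private ones. Counted along the lines of their chromosome, the median position was 41.2% in WT and 43.1% in STAG2-KD for shared pairs, 61.4% for the WT-only pairs and 58.0% for those found in STAG2-KD alone. What orders the lines is not given in the sources used here.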
